A study of Homo sapiens with 4 samples.

Results

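The RNA of 10 genes used as markers of breast cancer stem cells was compared between 2 related breast cancer cell lines. The genes were CD44, CD24 and PROM1, which encode surface proteins, and ALDH1A1, ALDH1A2, ALDH1A3, ALDH1B1, ALDH3A1, ALDH3A2 and ALDH3B1, which encode aldehyde dehydrogenases (ALDH). They were taken by gene name from a table of read counts for 65423 transcripts, of which 31 belonged to these 10 genes. The table held 34738 genes that could be paired with a symbol. Each gene was represented by whichever of its transcripts had most counts on average.

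MDA-MB-231-LM2 (LM2) is a subline of the human triple-negative line MDA-MB-231, and its samples were labelled as highly pulmonary metastatic. MDA-MB-231 was labelled as parental. The 2 cultures differed also in conditions, since LM2 cells grew in DMEM under CO2 in air and MDA-MB-231 cells in Leibovitz L-15 under air alone, both with fetal bovine serum, so that cell line and medium cannot be told apart. The labels listed 2 samples of each cell line, but the table held 1 column for each, and the sources do not say if it came from 1 library or from both. The differences below therefore have no replicate check, and no p-value was computed.

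Stem-like cells of breast tumors are commonly sorted as cells with much CD44 and little CD24 on their surface, or as cells with high ALDH activity. CD44 is the main receptor for hyaluronan, a sugar polymer of the extracellular matrix, and CD24 is a small, heavily glycosylated protein anchored to the membrane by a lipid. ALDH enzymes oxidize aldehydes to acids. The ALDH1A enzymes make retinoic acid from retinal, while the ALDH3 enzymes act mainly on medium-chain and long-chain aldehydes, including products of lipid peroxidation. Most basal-like and mesenchymal-like lines, MDA-MB-231 among them, are known as high in CD44 and low in CD24.

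Counts summed to 128985870 in LM2 and 130689252 in MDA-MB-231. RPKM is the count divided by transcript length in kilobases and by the column total, on the usual scale, so that an RPKM of 1 at 1 kilobase stood for 129 counts in LM2 and 131 counts in MDA-MB-231. Each ratio divides the LM2 count by the MDA-MB-231 count, scaled by the column totals, with an exact 95% interval. These intervals cover counting error only, and not the spread between cultures. Both columns held much RNA of VIM and KRT18 and little of ESR1. VIM, which encodes the intermediate filament vimentin, had 262027 counts in LM2 and 153536 counts in MDA-MB-231. KRT18, which encodes an epithelial keratin, had 25297 and 21530 counts. ESR1, which encodes the estrogen receptor, had 8 and 2 counts. ERBB2, which encodes HER2 and was listed as low in a triple-negative line, had 1922 counts in LM2 and 2966 in MDA-MB-231. Defining genes of other cell types were few in counts, with 7 counts in LM2 and 8 in MDA-MB-231 for PTPRC of leukocytes and 0 in both for CDH5 of endothelium, although PECAM1, another endothelial marker, had 343 counts in LM2 and 48 in MDA-MB-231.

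Of the 10 genes, 7 had a mean of at least 50 counts over both columns, the minimum set for a ratio. ALDH3A1 and ALDH3A2 were over 2-fold higher in LM2, ALDH3B1 was over 2-fold lower, and CD44, CD24, ALDH1A3 and ALDH1B1 stayed within 2-fold. These are 2 higher and 1 lower of 7. Among all 15510 genes at the same minimum, 4.58% were over 2-fold higher and 6.85% were over 2-fold lower in LM2. The median log2 ratio of the 7 genes was -0.28, beside -0.00 over all genes. PROM1, ALDH1A1 and ALDH1A2 had at most 6 counts in either column.

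**Figure D1:**
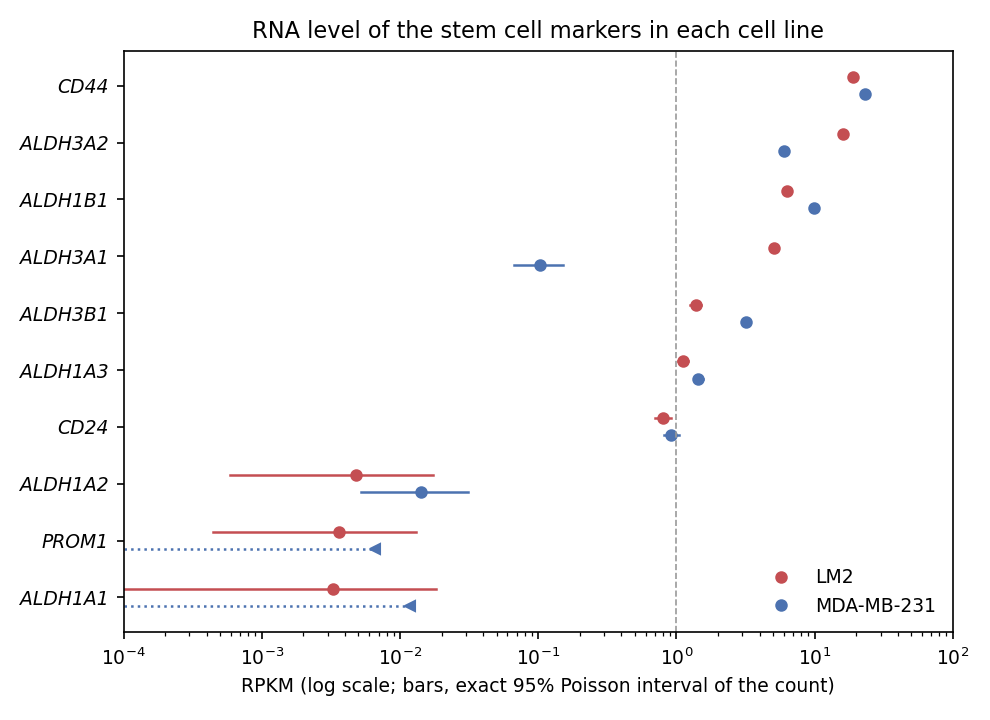
RNA level of each marker gene in RPKM on a log axis, with LM2 (red) above MDA-MB-231 (blue) for each gene; points are the 1 value per cell line, bars the exact 95% Poisson interval, and a triangle with a dotted line marks the upper limit of a count of 0. CD44 is the highest in both cell lines, ALDH3A1 lies at 5.10 RPKM in LM2 and 0.103 RPKM in MDA-MB-231, and PROM1, ALDH1A1 and ALDH1A2 lie below 0.1 RPKM in both.

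The same genes did not stand in the same order in the 2 cell lines. In LM2 the order by RPKM was CD44, ALDH3A2, ALDH1B1, ALDH3A1, ALDH3B1, ALDH1A3 and CD24, followed by ALDH1A2, PROM1 and ALDH1A1. In MDA-MB-231 it was CD44, ALDH1B1, ALDH3A2, ALDH3B1, ALDH1A3, CD24 and ALDH3A1, again followed by ALDH1A2, PROM1 and ALDH1A1. Neighbors in either order had counting intervals that did not overlap, apart from the last 3 genes, which could not be ordered. ALDH3A1 thus stood above ALDH3B1, ALDH1A3 and CD24 in LM2 and below all 3 in MDA-MB-231, and ALDH3A2 stood above ALDH1B1 in LM2 and below it in MDA-MB-231.

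CD44 was the most abundant marker and was slightly lower in LM2. Its transcript NM_000610 had 14048 counts (19.0 RPKM) in LM2 and 17246 counts (23.0 RPKM) in MDA-MB-231, with a log2 ratio of -0.28 (-0.31 to -0.24). This was 1.21-fold lower. All 8 CD44 models of the table gave nearly the same ratio, with log2 values between -0.28 and -0.26. They share most of their reads and are not separate measurements. In a bulk RNA sample, fewer cells that express a gene and less RNA in each cell cannot be told apart, here and for every gene below.

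The CD44 gene holds a block of variant exons that most cells splice out. The standard form (CD44s) lacks them, and epithelial cells join some of them into longer forms (CD44v). In GENCODE release 29 on GRCh38, the model that matches NM_000610 in length has 18 exons on chromosome 11, and exons 6 to 14 are the variant block. Nested models in the table differed in length by exactly these exons. The difference of their counts was taken as the reads that the exons add. This assumes that each read counted to the shorter model was also counted to the longer one. How reads were counted is not stated. Among the 4 blocks of variant exons measured, exon 14 had the most reads for its length. This exon (chr11:35211246-35211449, plus strand, coding), and the constant exon next to it, exon 15 (chr11:35214852-35214914, plus strand, coding), are shown because the comparison of splice forms rests on them. Sequences are from the GENCODE transcripts and carry no capitals.
CD44 exon 14: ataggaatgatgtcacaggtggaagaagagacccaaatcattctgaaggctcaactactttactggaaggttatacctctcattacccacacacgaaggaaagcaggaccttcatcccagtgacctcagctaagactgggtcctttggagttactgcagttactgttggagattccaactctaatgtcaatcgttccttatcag
CD44 exon 15: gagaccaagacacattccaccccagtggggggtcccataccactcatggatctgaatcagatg

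By this subtraction, reads in the variant block were sparse in both cell lines and sparser in LM2. All of exons 6 to 14, 1143 bases, added 303 reads in LM2 and 449 reads in MDA-MB-231, which is 2.06 and 3.01 RPKM. Set against the read density of the standard model NM_001001391 (13745 counts in LM2 and 16797 counts in MDA-MB-231), the variant block reached 8.85% in LM2 and 10.7% in MDA-MB-231. The constant exon 15, measured by the same subtraction, added 172 and 197 reads and reached 91.2% in LM2 and 85.4% in MDA-MB-231. Under the assumption above, CD44 RNA was mostly without the variant block in both columns.

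By the same subtraction, the variant block was lower in LM2 by more than the gene was. Its log2 ratio was -0.55 (-0.76 to -0.34). Relative to the standard model, variant reads in LM2 were 0.825 times those in MDA-MB-231 (0.709 to 0.958). By exon, exon 6 added 19 reads in LM2 and 37 in MDA-MB-231, exons 7 to 11 added 144 and 235, exons 12 and 13 added 52 and 56, and exon 14 added 88 and 121. Only exons 7 to 11 had an interval relative to the standard model that lay wholly below 1 (0.749, 0.604 to 0.927). Whether the reads come from spliced variant forms or from unspliced RNA was not tested.

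**Figure D2:**
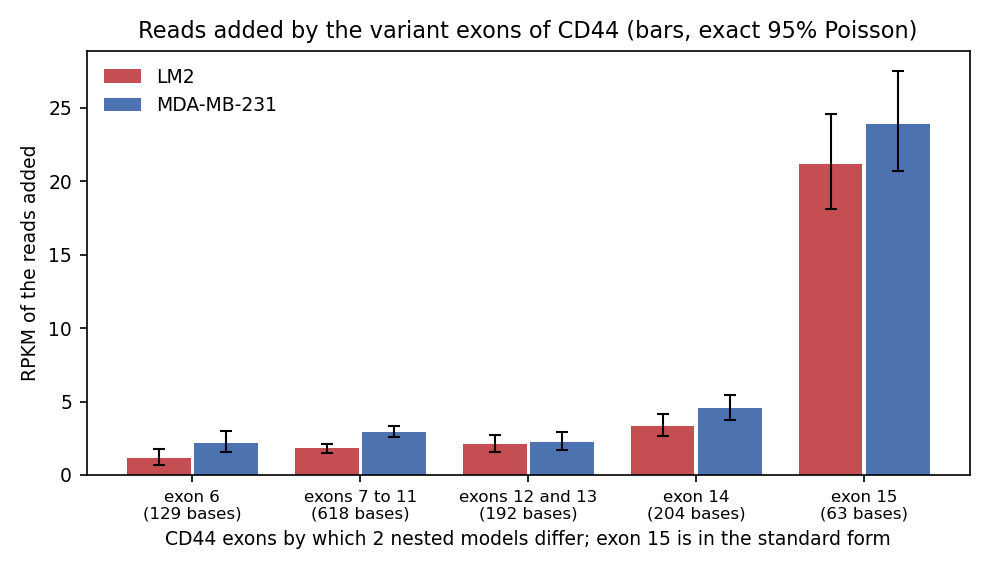
Reads that each block of CD44 exons adds between 2 nested models, in RPKM, for LM2 (red, left) and MDA-MB-231 (blue, right), with exact 95% Poisson intervals. The variant blocks lie between 1.14 and 4.54 RPKM in both cell lines, far below the constant exon 15 at 21.2 RPKM in LM2 and 23.9 RPKM in MDA-MB-231.

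Regulators of CD44 splicing were measured as a list of 15 genes, of which 14 reached 50 counts. None was over 2-fold higher and 1 of 14 was over 2-fold lower, a share near the 6.85% of all genes, and the median log2 ratio was 0.16. The lower gene was ESRP2, an epithelial splicing factor that promotes the variant exons, with 152 counts in LM2 and 434 counts in MDA-MB-231 (log2 ratio -1.49, -1.77 to -1.22). Its relative ESRP1 was under the minimum, with 42 counts in LM2 and 4 in MDA-MB-231. The most abundant members within 2-fold were YBX1, with 45418 counts in LM2 and 32417 counts in MDA-MB-231, and HNRNPA1, with 38000 and 24750 counts. Both have many processed pseudogenes, so their counts are uncertain.

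CD24 was low in both cell lines and did not differ beyond counting error. It had 225 counts (0.80 RPKM) in LM2 and 262 counts (0.920 RPKM) in MDA-MB-231. The log2 ratio was -0.20 with an interval that holds 0 (-0.46 to 0.06). The level of CD44 over that of CD24, both in RPKM, was 23.7 in LM2 and 25.03 in MDA-MB-231. The quotient of the 2 ratios was 0.949 (0.790 to 1.14), so at this depth no difference in CD44 over CD24 was detectable at the RNA level.

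The CD24 count depends on how reads were placed. A processed copy on chromosome Y, CD24P4, is nearly the same in sequence, and the table gave no row of its own to it. In GENCODE release 29 on GRCh38, the CD24 model has the 2180 bases listed in the table, in 2 exons, but its placement in hg19 is not stated in the sources. The 240 coding bases of CD24 (2 segments within chr6:106971664-106974646, minus strand) and the matching bases of CD24P4 (chrY:18992470-18992709, minus strand) are shown, without the stop codon, and capitals mark the bases that differ.
CD24: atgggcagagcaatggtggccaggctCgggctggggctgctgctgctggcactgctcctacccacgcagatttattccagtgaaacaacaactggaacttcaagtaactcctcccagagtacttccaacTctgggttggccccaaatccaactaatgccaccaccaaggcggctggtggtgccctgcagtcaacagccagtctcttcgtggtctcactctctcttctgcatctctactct
CD24P4: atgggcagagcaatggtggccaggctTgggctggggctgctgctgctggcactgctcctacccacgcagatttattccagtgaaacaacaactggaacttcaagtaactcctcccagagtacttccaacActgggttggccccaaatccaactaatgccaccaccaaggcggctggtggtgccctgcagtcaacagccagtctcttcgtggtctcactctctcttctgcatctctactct

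The 2 sequences were equal at 238 of 240 bases (99.2%), with a longest equal run of 110 bases. By contrast, the copies CD24P1 and CD24P2 were equal at 57.2% and 60.7% of the bases compared, without gaps. How reads that match both sequences were placed is not stated in the sources, so the CD24 count is uncertain.

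PROM1, which encodes the surface marker CD133, was close to absent from both columns. Each of its 7 transcripts had 2 counts in LM2 and 0 in MDA-MB-231. A floor of 3 counts stood at 0.00546 RPKM in LM2 and 0.00539 RPKM in MDA-MB-231 for the transcript NM_001145847, and both values were below it, so no ratio is given.

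The 7 ALDH genes shared the reaction and differed in sequence. For each, 36 coding bases around the catalytic cysteine are shown, with the codon of that cysteine in capitals. They are shown because they hold the site that the family shares. The codon is the 303rd in ALDH1A1 and the 244th in ALDH3A1, counted from the start codon. Each stretch lies within 1 coding exon. On GRCh38 the sites of the ALDH1 branch are at chr9:72917034-72917069 (ALDH1A1, minus strand), chr15:57963999-57964034 (ALDH1A2, minus strand), chr15:100900610-100900645 (ALDH1A3, plus strand) and chr9:38396682-38396717 (ALDH1B1, plus strand). Those of the ALDH3 branch are at chr17:19741156-19741191 (ALDH3A1, minus strand), chr17:19657764-19657799 (ALDH3A2, plus strand) and chr11:68021631-68021666 (ALDH3B1, plus strand).
ALDH1A1: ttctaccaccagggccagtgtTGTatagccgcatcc
ALDH1A2: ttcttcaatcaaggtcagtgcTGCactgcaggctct
ALDH1A3: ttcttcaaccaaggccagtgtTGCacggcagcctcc
ALDH1B1: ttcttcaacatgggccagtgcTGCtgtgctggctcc
ALDH3A1: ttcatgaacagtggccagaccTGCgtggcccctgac
ALDH3A2: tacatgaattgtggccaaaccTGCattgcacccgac
ALDH3B1: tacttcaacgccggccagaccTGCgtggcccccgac

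Within the ALDH1 branch, pairs of genes were equal at 23 to 30 of these 36 bases, and within the ALDH3 branch at 26 to 29. Between the branches it was 16 to 23, so the ranges met at 23 and these bases alone do not fully separate the branches. Over whole transcripts, the longest exact stretch that any of the 21 pairs shared was 31 bases, between ALDH3A2 and ALDH3B1.

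The ALDH1A enzymes, which make retinoic acid, had low counts. ALDH1A1, the enzyme most often linked to ALDH activity in stem cell assays, had 1 count in LM2 and 0 in MDA-MB-231. ALDH1A2 had 2 counts in LM2 and 6 in MDA-MB-231 for its transcript NM_170697, with upper limits of 0.0175 and 0.0312 RPKM. For both genes a difference was not detectable at this depth.

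ALDH1A3 was the only ALDH1A gene with more than a few counts. It had 503 counts (1.12 RPKM) in LM2 and 659 counts (1.44 RPKM) in MDA-MB-231, with a log2 ratio of -0.37 (-0.54 to -0.20). This was 1.29-fold lower. The value may include reads of a neighbor. The non-coding gene AC015712.2 runs over 1585 of the 5772 exon bases of ALDH1A3 on the other strand, and its highest transcript had 264 counts in LM2 and 367 in MDA-MB-231. No source states whether the counting used strand, and without strand the 2 genes cannot be told apart.

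ALDH1B1, a mitochondrial enzyme that oxidizes acetaldehyde and retinal, was lower in LM2 and was the gene closest to 2-fold without passing it. It had 2509 counts (6.34 RPKM) in LM2 and 3999 counts (9.97 RPKM) in MDA-MB-231. The log2 ratio was -0.65 (-0.73 to -0.58), or 1.57-fold lower. Among the 7 ALDH genes of the marker set it was the most abundant in MDA-MB-231.

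The largest difference among the markers was in ALDH3A1, a soluble enzyme abundant in cornea and known to be inducible by aryl hydrocarbons. ALDH3A1 had 1268 counts (5.10 RPKM) in LM2 and 26 counts (0.103 RPKM) in MDA-MB-231. The log2 ratio was 5.63 (5.07 to 6.25), or 49.4-fold higher (33.6 to 75.9). All 3 ALDH3A1 models gave log2 ratios between 5.63 and 5.70. Of all genes at the minimum, 38 had a larger ratio, which put ALDH3A1 at the 99.7th percentile. A non-coding gene on the other strand, AC005722.3, overlaps 98 of its 3918 exon bases and had 64 counts in LM2 and 1 in MDA-MB-231.

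ALDH3A2, the fatty aldehyde dehydrogenase of the endoplasmic reticulum, was also higher in LM2. The counts were 7882 (15.98 RPKM) in LM2 and 3001 (6.01 RPKM) in MDA-MB-231. The log2 ratio was 1.41 (1.35 to 1.47), or 2.66-fold higher, at the 97.4th percentile of all genes. Both ALDH3A2 models gave the same log2 ratio to 2 decimals. ALDH3B1, an enzyme of the same branch that oxidizes medium-chain and long-chain aldehydes at membranes, went the other way. It had 502 counts (1.38 RPKM) in LM2 and 1182 counts (3.21 RPKM) in MDA-MB-231. Its log2 ratio was -1.22 (-1.37 to -1.06), or 2.32-fold lower, at the 4.84th percentile, and its 3 models lay between -1.22 and -1.17.

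**Figure D3:**
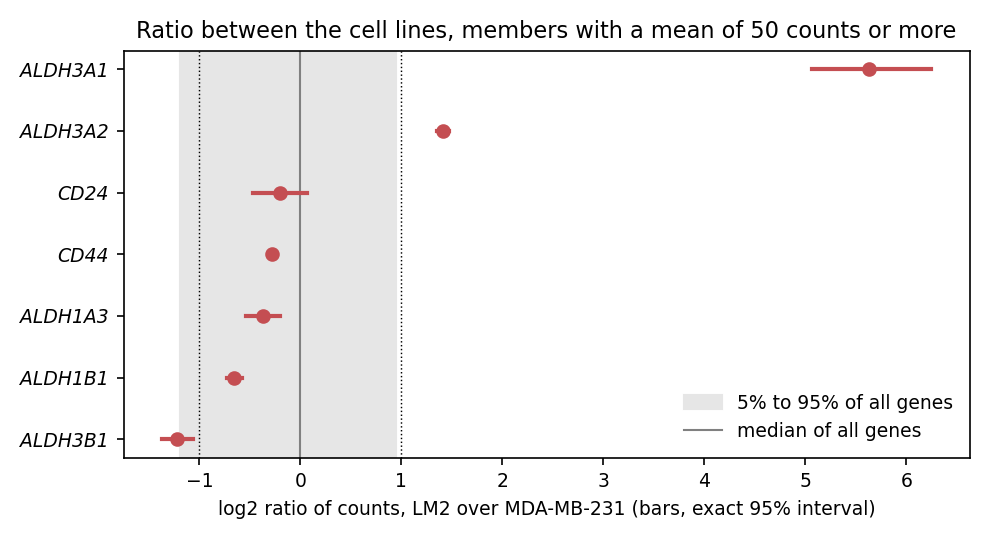
Log2 ratio of counts, LM2 over MDA-MB-231, for the 7 markers averaging 50 counts or more, with exact 95% intervals; the gray band spans the 5% to 95% range of all genes (-1.19 to 0.95), the gray line is their median and dotted lines mark 2-fold. ALDH3A1 (5.63) and ALDH3A2 (1.41) lie to the right of the band, ALDH3B1 (-1.22) lies just past its left edge, and the other 4 genes lie inside it.

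With these changes the makeup of the RNA of these 7 ALDH genes differed between the cell lines more than its sum. The RPKM of the 7 genes summed to 29.9 in LM2 and 20.7 in MDA-MB-231, a ratio of 1.44, and to 24.8 and 20.6 without ALDH3A1, a ratio of 1.203. ALDH3A2 held 53.4% of the sum in LM2 and 28.95% in MDA-MB-231, while ALDH1B1 held 21.2% in LM2 and 48.0% in MDA-MB-231. ALDH3A1 held 17.0% in LM2 and 0.497% in MDA-MB-231. As groups, the 3 ALDH3 genes took 75.1% in LM2 and 44.9% in MDA-MB-231, and the 3 ALDH1A genes 3.76% and 7.02%. These shares are of RNA levels per length, and enzyme activity was not measured.

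ALDH3A1 and ALDH3A2 lie beside each other on chromosome 17 among genes that reached 50 counts on average. The 15 such genes on each side of ALDH3A1 had a median log2 ratio of 0.16. Besides ALDH3A2, only ULK2, a kinase that starts autophagy, was beyond 2-fold there, and it was lower, with 147 counts in LM2 and 737 in MDA-MB-231 (-2.30). The gene on the far side of ALDH3A2, SLC47A1, an exporter of organic cations, had 300 counts in LM2 and 157 in MDA-MB-231 (0.95). High ratios were thus seen in the adjacent pair and not along the neighboring genes.

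Around ALDH1A3 the pattern was the reverse. Its 21 neighbors toward the end of chromosome 15 had a median log2 ratio of 0.90, 9 of them were over 2-fold higher in LM2, and all 21 lay above ALDH1A3. For CD44, CD24, ALDH1B1 and ALDH3B1 the medians of the 30 neighbors were 0.17, 0.04, 0.11 and 0.08. All 30 neighbors of ALDH3B1 lay above it. Copy number was not measured, and its part in these ratios was not tested.

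**Figure D4:**
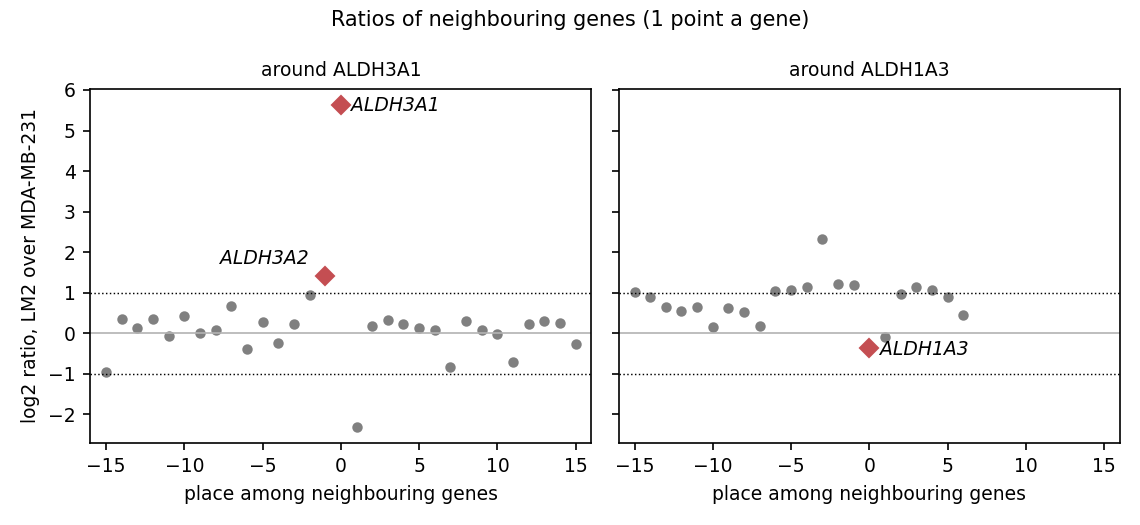
Log2 ratio, LM2 over MDA-MB-231, of the genes around ALDH3A1 (left panel) and ALDH1A3 (right panel), by their place in chromosome order among genes averaging 50 counts or more; red diamonds are the markers, gray points their neighbors and dotted lines 2-fold. ALDH3A1 and ALDH3A2 stand above a flat neighborhood with a median of 0.16, and ALDH1A3 lies below 21 neighbors with a median of 0.90.

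The other genes of the family and its pathway were then described by lists. For each list the shares to set beside it are those of all genes, 4.58% over 2-fold higher and 6.85% over 2-fold lower in LM2. Among the other aldehyde dehydrogenases, 10 of 12 genes reached 50 counts, 0 were over 2-fold higher and 3 were lower in LM2, with a median log2 ratio of -0.27. With TMM factors 2 were lower, since ALDH5A1 lay at the threshold. ALDH2, the mitochondrial enzyme of alcohol metabolism, had 871 counts in LM2 and 1960 in MDA-MB-231 (-1.15, -1.27 to -1.04). ALDH5A1, of the breakdown of the transmitter GABA, had 382 and 775 counts (-1.002, -1.18 to -0.82). ALDH1L1, a folate enzyme, had 32 and 109 counts (-1.75, -2.37 to -1.17). ALDH9A1 and ALDH18A1 were the most abundant within 2-fold, and ALDH9A1 had 18.5 RPKM in LM2 and 18.2 RPKM in MDA-MB-231. No other gene of the family was thus over 2-fold higher in LM2, as ALDH3A1 and ALDH3A2 were.

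Aldehydes are also removed by reductases and oxidases. Of 12 such genes, 11 reached 50 counts, 4 were over 2-fold higher and 0 were over 2-fold lower in LM2, with a median log2 ratio of 0.17. The 4 were AKR1C1 (2185 counts in LM2 and 116 in MDA-MB-231), AKR1C2 (399 and 68), AKR1C3 (2940 and 1132) and AKR1B1 (4642 and 2251), all reductases of aldehydes and ketones, and the AKR1C enzymes act on steroids as well. Their log2 ratios were 4.25, 2.57, 1.40 and 1.06. The AKR1C genes are close paralogs, so reads may be split among them and each count is uncertain. CBR1, a carbonyl reductase, was the most abundant within 2-fold, with 5289 counts in LM2 and 5151 in MDA-MB-231. Within 2-fold, some were lower in LM2 beyond counting error, namely the carbonyl reductase DCXR with 1071 counts in LM2 and 1802 in MDA-MB-231 (-0.73, -0.84 to -0.62), the aldehyde oxidase AOX1 (-0.33, -0.39 to -0.26) and the aldehyde reductase AKR7A2 (-0.12, -0.20 to -0.04).

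Genes of retinoid uptake, synthesis and breakdown numbered 22, of which 10 reached 50 counts. In LM2, 2 were over 2-fold higher and 0 lower, with a median log2 ratio of 0.51. LRAT, which stores retinol as esters, had 214 counts in LM2 and 37 in MDA-MB-231 (2.55, 2.04 to 3.10). FABP5, which carries fatty acids and retinoic acid, had 3645 and 1222 counts (1.60, 1.502 to 1.69). RDH11, a retinal reductase, was the most abundant within 2-fold, with 36.5 RPKM in LM2 and 24.7 RPKM in MDA-MB-231.

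Retinoic acid receptors and targets showed no common direction. Of 19 genes, 10 reached 50 counts, 1 was over 2-fold higher and 2 were lower, with a median log2 ratio of -0.28. The receptor gene RARG had 1187 counts in LM2 and 589 in MDA-MB-231 (1.03, 0.89 to 1.17). PLAAT4, first described as a retinoid-induced gene, had 102 and 1349 counts (-3.71, -4.01 to -3.42), and TGM2, tissue transglutaminase, had 5333 and 12213 counts (-1.18, -1.22 to -1.13). The receptor RXRA and the corepressor NCOR1 stayed within 2-fold.

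Partners of CD44 and CD24 had a median near that of all genes and held the 2 most extreme ratios of the lists. Of 24 genes, 19 reached 50 counts, 1 was over 2-fold higher and 3 were lower, with a median log2 ratio of -0.12. CEMIP, which breaks down hyaluronan, had 78 counts in LM2 and 8916 counts in MDA-MB-231 (113-fold lower, 90.3 to 143). SPP1, osteopontin, a secreted ligand of CD44, had 965 counts in LM2 and 10 in MDA-MB-231. LAYN, another hyaluronan receptor, had 1698 and 4155 counts (-1.27), and ADAM10, a protease that sheds CD44, had 3849 and 8621 counts (-1.14). MSN, moesin, which ties CD44 to actin, and MMP14, a membrane protease that cleaves CD44, stayed within 2-fold. MSN had 102 RPKM in LM2 and 129.6 RPKM in MDA-MB-231, and MMP14 had 95.05 and 63.6 RPKM.

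Other stem cell and progenitor markers moved in both directions. Of 32 genes, 24 reached 50 counts, 3 were over 2-fold higher and 5 were lower, with a median log2 ratio of -0.08. The higher genes were DCLK1, a kinase of tuft cells (536 counts in LM2 and 78 in MDA-MB-231), SOX2, a pluripotency factor (236 and 44), and B4GALNT1, a ganglioside synthase (346 and 101). Lower were TSPAN8, a tetraspanin (13 counts in LM2 and 363 in MDA-MB-231), NGFR, a neurotrophin receptor (28 and 639), PROM2, a relative of PROM1 (32 and 215), L1CAM, an adhesion molecule (994 and 3163), and PROCR, the protein C receptor (1169 and 2532). SOX2, B4GALNT1, L1CAM and PROCR fell outside the rule for named genes and were named after their values were seen, as were ESRP1, DCXR, AOX1 and AKR7A2 above and the cell type markers ESR1, PTPRC and CDH5. CD9 and ITGA6 were the most abundant within 2-fold.

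**Figure D5:**
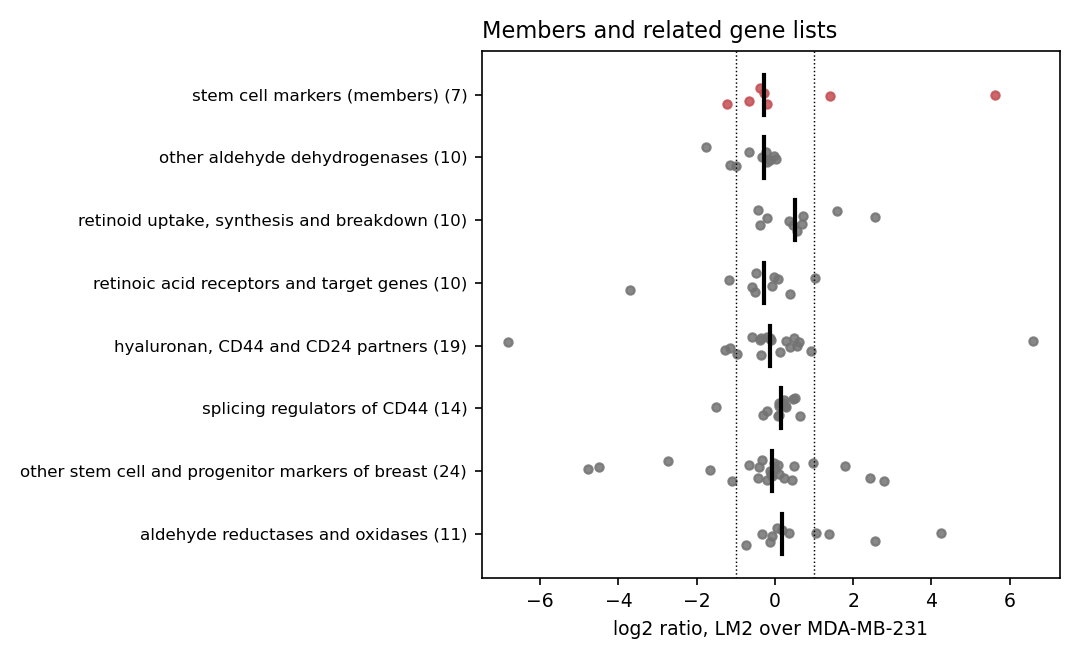
Log2 ratio, LM2 over MDA-MB-231, of the marker genes (red) and of 7 related gene lists (gray), 1 point per gene averaging 50 counts or more; the number of genes is in brackets, black ticks are medians and dotted lines mark 2-fold. List medians lie between -0.28 and 0.51, and the most extreme points are CEMIP on the left and SPP1 on the right.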

How the data were processed

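Total RNA of LM2 and MDA-MB-231 cells was extracted with Trizol and sequenced on an Illumina platform. Per the submitters' processing notes, bcl2fastq and TopHat2 (version 2.0.13) were used with hg19 (GRCh37). How reads were counted, with which annotation and whether by strand, was not stated in those notes or in the study's methods. For each transcript the authors deposited a read count, used here unchanged, and an RPKM value. The RPKM deposited by the authors equal the count divided by listed length and column total, to a relative difference of at most 4.98e-06. Overlapping transcripts can count a read more than once.

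Ratios of counts, with exact Clopper-Pearson intervals at 95%, and exact Poisson intervals of RPKM were computed. With 1 column per cell line, edgeR's test could not be run. For the 2-fold calls and medians of lists and of all genes, the percentiles and the ratios of neighboring genes, 0.5 counts were added. Ratios printed for single members and single genes of the lists had none added. No ratio was given where both counts were at or under 3. Symbols, exon models, overlaps and sequences were taken from GENCODE release 29 (GRCh38) and current gene tables, and no hg19 coordinates were converted. Named genes were all members and, from each list, up to 4 genes over 2-fold by size of ratio and up to 2 of most RPKM within 2-fold. The members and lists were chosen with earlier results of these data known. Alternatives were scaling by TMM and upper-quartile factors (edgeR 4.0.16) and size factors (DESeq2 1.42.0), other transcripts, pseudocounts, minimums and folds. The software was scipy 1.17.1, numpy 2.4.6, Biopython 1.88, pandas 2.3.3 and matplotlib 3.10.9 under Python 3.11.15, and R 4.3.3.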

Additional observations from a re-analysis of the deposited data

How the results depend on the processing

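No member reversed under any of the 10 alternatives tried for its ratio. Other scalings moved all log2 ratios by at most 0.01 (TMM factors), or by -0.07 when totals left out the 12 transcripts of most counts. With the latter totals, CD44 came to -0.34 and ALDH3A2 to 1.35. On the log2(RPKM + 0.1) scale ALDH3A1 came to 4.68. On the log2(RPKM + 1) scale, which shrinks low genes, ALDH3A1 came to 2.47, ALDH3A2 to 1.28 and ALDH3B1 to -0.82, so that 0 members were over 2-fold lower in LM2. With no minimum on counts, 2 members were over 2-fold lower, ALDH1A2 being added. A fold of 1.5 also gave 2 members lower, through ALDH1B1. With an RPKM over 1 asked of both cell lines, ALDH3A1 was left out and 1 member was over 2-fold higher. Adding 0.5 counts was tried after seeing the data. Of 28 counts over the lists, 22 stayed within 1.5 times and 6 did not, all of them with no minimum. No paired analysis was possible because the table holds 1 column per cell line, and for the same reason no replicate could be left out. A gene whose counts are at or under 3 could not be compared at this depth.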

Other observations

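ALDH3A1 and the AKR1C genes are known targets of the aryl hydrocarbon receptor (AHR) or of the oxidative stress factor NRF2, so 12 genes of these responses were looked up after the values of the members were seen. All 12 reached 50 counts, 2 were over 2-fold higher and 1 was lower in LM2, with a median log2 ratio of 0.34. Over all genes the shares were 4.58% higher and 6.85% lower. NQO1, a quinone reductase of both responses, had 25189 counts in LM2 and 7944 in MDA-MB-231 (1.68, 1.65 to 1.72). AHRR, the AHR repressor, had 825 and 129 counts (2.70, 2.43 to 2.98). CYP1B1, a cytochrome P450 that AHR induces, went the other way, with 527 counts in LM2 and 4705 in MDA-MB-231 (-3.14, -3.27 to -3.01). AHR itself had 7439 and 11413 counts (-0.60). CYP1A1, its usual indicator gene, had 123 and 76 counts (0.71, 0.29 to 1.15). TIPARP, also of the AHR response, had 4623 and 3749 counts (0.32, 0.26 to 0.38). CYP1A1 and TIPARP fell outside the rule for named genes, as did HMOX1, GCLC, GCLM and NFE2L2. The other NRF2 targets of the list were within 2-fold and higher in LM2 beyond counting error, with log2 ratios of 0.54 for HMOX1 (0.38 to 0.70), 0.54 for GCLC (0.43 to 0.64), 0.37 for GCLM (0.28 to 0.45) and 0.21 for TXNRD1 (0.19 to 0.23). The gene of NRF2 itself, NFE2L2, had a log2 ratio of -0.21 (-0.30 to -0.12). The part of AHR or NRF2 in the ratios of ALDH3A1 and the AKR1C genes was not tested, and cell line and medium cannot be told apart.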
